A study of Rattus norvegicus with 70 samples.

Results

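Endothelial marker genes were followed through rat livers in a model of chemical liver carcinogenesis with an initiating and a promoting treatment. The 6 genes listed were Pecam1, Flt1, Kdr, Tek, Tie1 and Eng, taken by symbol as known markers of the endothelium, with earlier results of these data known when the list was made. Pecam1, Flt1, Tek and Tie1 each had 1 region in both deposited tables of 17174 regions around transcript starts. Kdr and Eng matched no row by symbol or by transcript and are not analysed here. The assay was MBD sequencing, in which a methyl-binding protein (MethylMiner kit) pulls down methylated DNA fragments that are then sequenced, here on a SOLiD 4 instrument. The signal is therefore a measure of methylated DNA in a region and not of RNA or of a number of cells, so the data hold no direct check of whether these genes were active in the tissue.

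The rats belonged to the Crj:CD(SD)IGS stock, and liver was the tissue throughout. The initiators were diethylnitrosamine at 3 mg/kg (DEN3) or 30 mg/kg (DEN30), thioacetamide at 45 mg/kg (TAA), methapyrilene at 100 mg/kg (MP) and acetaminophen at 1000 mg/kg (APAP). Each was followed by 500 ppm phenobarbital in the drinking water. Phenobarbital controls (PB) received 0.5% methylcellulose and then phenobarbital at the same dose, and water controls received 0.5% methylcellulose and then plain water. Initiators were given for 1 or 2 weeks, DEN30 for 1 week because of weight loss, and withdrawn for 2 weeks before promotion. Liver was sampled at terminal euthanasia, after 6 weeks of promotion, and at partial hepatectomy, after 1 week of promotion. Partial hepatectomy was performed on all animals, water controls included, so the terminal livers had all been operated on. The 7 conditions at 2 times gave 14 groups of 5 libraries, 70 in all, and per the labels each group came from 5 livers. Whole liver DNA was used, so the signal averages over hepatocytes and all other cells, and a change in the share of endothelial cells cannot be told apart from a change of methylation within a cell type. The labels do not tie libraries of the 2 times to the same rat.

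The genes encode surface proteins of the endothelium. PECAM1 (CD31) is an adhesion molecule of endothelial junctions that is also found on platelets and leukocytes. FLT1 (VEGFR-1) and KDR (VEGFR-2) bind vascular endothelial growth factors, and FLT1 binds VEGFA tightly with weak kinase activity, so that it acts largely as a trap for the ligand. TEK (TIE2) is the receptor for the angiopoietins, and TIE1 is its partner receptor, for which the angiopoietins are not direct high-affinity ligands. ENG (endoglin) is a co-receptor for BMP and TGF-beta ligands. In liver, these genes are expressed chiefly by sinusoidal and vascular endothelial cells, and hepatocytes, which make up most of the tissue mass, are not their main source. DNA methylation at the CpG-rich start of a gene usually accompanies silence of that gene, and methyl-binding capture recovers fragments in proportion to both their methylation and their number of CpG sites.

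The 2 promoters that could be matched among these genes differ in CpG content, the substrate of the assay, and are shown for that reason. Both are RefSeq sequences of the GRCr8 assembly, 250 bases before to 50 bases after the annotated start, printed 5′ to 3′ on the gene's strand with every CpG in capitals. The Flt1 promoter lies at chr12:12333180-12333479 on the plus strand and the Tie1 promoter at chr5:137304932-137305231 on the minus strand.
Flt1: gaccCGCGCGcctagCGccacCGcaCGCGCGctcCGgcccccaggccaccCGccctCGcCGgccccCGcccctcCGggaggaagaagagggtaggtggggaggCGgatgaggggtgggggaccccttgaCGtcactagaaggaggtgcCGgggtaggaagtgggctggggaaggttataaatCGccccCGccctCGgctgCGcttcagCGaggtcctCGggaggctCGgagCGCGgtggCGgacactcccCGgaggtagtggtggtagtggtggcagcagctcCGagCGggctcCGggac
Tie1: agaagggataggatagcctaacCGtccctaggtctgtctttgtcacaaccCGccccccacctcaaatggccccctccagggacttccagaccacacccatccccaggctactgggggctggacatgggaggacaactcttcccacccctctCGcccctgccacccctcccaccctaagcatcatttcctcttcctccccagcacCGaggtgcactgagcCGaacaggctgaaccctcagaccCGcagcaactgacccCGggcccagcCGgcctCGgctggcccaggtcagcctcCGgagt
The Flt1 window held 31 CpG and 72.7% G plus C, and 10.3% of 24206 RefSeq promoters held as many CpG or more. The Tie1 window held 10 CpG and 64.3% G plus C, and 45.6% of the promoters held as many or more. The median promoter held 8 CpG, and 94.8% held at least 1, CG being the only motif searched and reading the same on both strands. Among all RefSeq promoters Flt1 therefore belongs with the CpG-dense ones and Tie1 lies near the middle. The genes with a region here were richer in CpG. Of 9857 such genes with a promoter sequence, 4389 held 20 or more CpG, 2379 held 10 to 19 and the rest fewer. Across these 9857 genes, mean signal showed almost no steady rise or fall with CpG count in rank (Spearman rho = -0.03, across genes, which are not independent). The CpG count covers the promoter window of 300 bases, whereas the signal covers the region of 5625 bp, most of which lies outside that window. Median signal was 35.6 for promoters with 0 to 3 CpG, 95.3 for 4 to 9, 59.3 for 10 to 19 and 52.5 for 20 or more.

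In the coordinates of the files, for which no source at hand names a build, the Pecam1 region (transcript NM_031591) spans 96056099 to 96061724 of chromosome 10 on the minus strand. The Flt1 region (NM_019306) spans 7853592 to 7859217 of chromosome 12 on the plus strand. The Tek region (NM_001105737) spans 115042695 to 115048320 of chromosome 5 on the plus strand, and the Tie1 region (NM_053545) spans 138963506 to 138969131 of the same chromosome on the minus strand. Each is 5625 bp wide and none overlaps another region of the tables. Distances in the authors' peak list place the starts of Flt1, Tek and Tie1 at the point 4500 bp from the upstream edge, within 0.5 bp, so most of each region lies upstream of the gene.

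The scaling totals of the libraries lay between 42.1 and 56.6 M, the regions held 0.933 to 1.80 M recovered reads per library, and the median region held 41 to 69 reads. A set of libraries stood apart. In 9 of 70 libraries under 1% of regions had no read, against up to 5.39% elsewhere, and they are called weakly enriched here. They were libraries 3 of DEN30, 4 of TAA, 3 of MP, 3 of APAP and 5 of PB at terminal euthanasia, and libraries 3 and 4 of DEN30, 5 of APAP and 5 of water at partial hepatectomy. Median signal in these 9 and in the other 61 libraries was 161 and 234 for Pecam1, 128 and 167 for Tek, 101 and 140.2 for Tie1, but 70.8 and 49.1 for Flt1. The 3 stronger regions were thus lower, and Flt1, near the median of regions, was higher. Of the 9, Pecam1 lay below its group mean in 8, Tek in 9, Tie1 in 8 and Flt1 in 1. The share of these deviations due to enrichment was not tested.

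Library numbers in the titles fall into 4 blocks, and the last block holds library 5 of each initiator group at both times. In the scaling of the deposited values, all 10 of these libraries carried the total of a library of the first block, within a relative 1e-05, while none of the other 60 shared a total with another. Median signal in the 10 and in the other 60 was 296 and 215 for Pecam1, 73.9 and 49.3 for Flt1, 191 and 160.5 for Tek and 156 and 130.3 for Tie1. Taken relative to the median region of the same library, which removes the scaling total, the medians were 4.51 and 4.19 for Pecam1, 1.21 and 0.95 for Flt1, 3.17 and 3.02 for Tek and 2.44 and 2.58 for Tie1. On that scale the gap was widest in proportion for Flt1, and for Tie1 it turned round. PB and water controls have no library in this block, while each initiator group has 4 libraries outside it. With the block as a covariate, as without it, no member passed the tests of treatment differences, but the estimates for Flt1 moved. At terminal euthanasia its log2 differences from PB with the covariate were -0.64 for TAA, -0.63 for APAP, -0.58 for DEN3 and -0.56 for MP. Without it they were -0.45, -0.45, -0.48 and -0.38. With the covariate the unadjusted limma p of these 4 differences lay between 0.021 and 0.040, and none passed after adjustment. The 4 are named because their unadjusted p was under 0.05 with the covariate. DEN30 minus PB, at -0.32 without the covariate, did not reach that value with it.

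**Figure D1:**
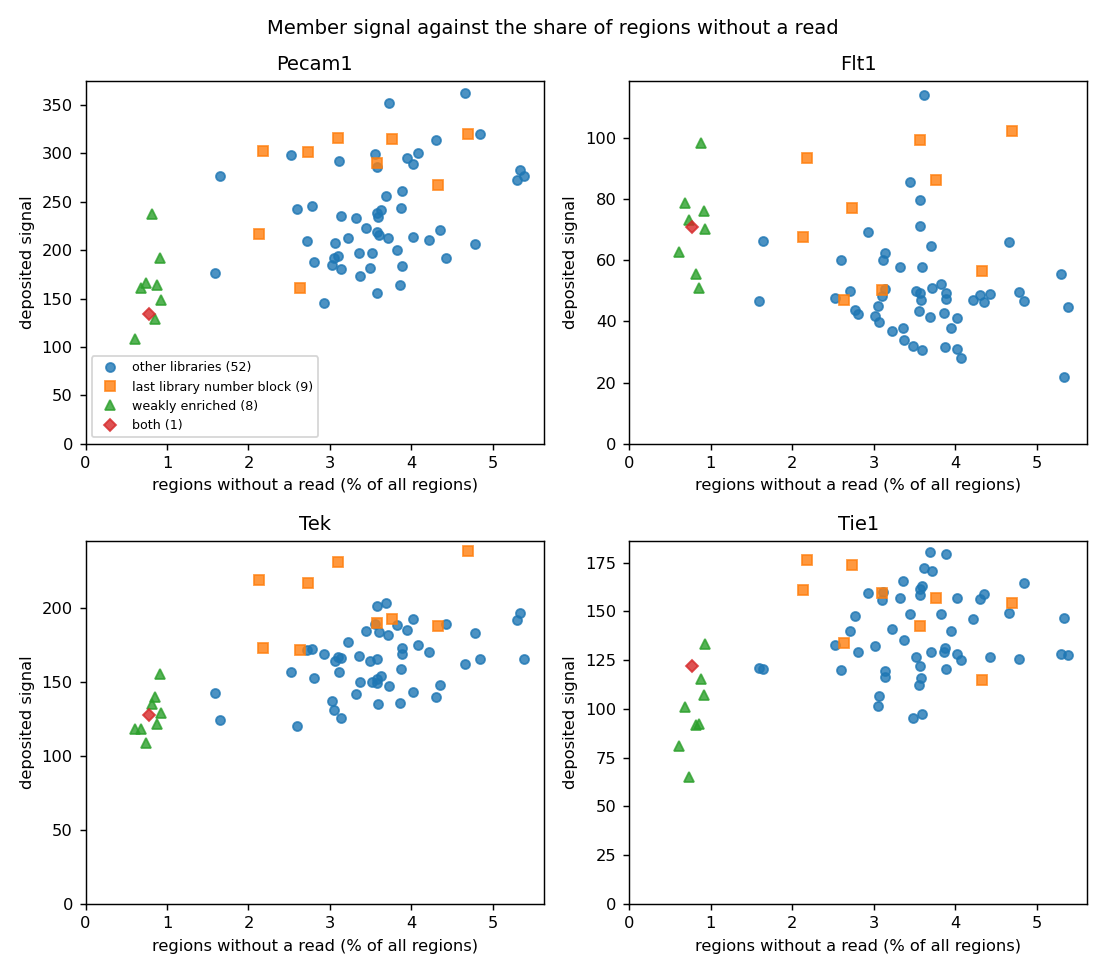
Deposited signal (y axis, from 0) of each gene in the 70 libraries against the share of 17174 regions without a read (x axis, percent), with weakly enriched libraries and the last library number block marked. The weakly enriched libraries sit at the left, low for Pecam1, Tek and Tie1 and between 50.8 and 98.4 for Flt1.

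Pecam1 carried the strongest signal of the 4 genes and Flt1 the weakest. The deposited signal, in which reads were scaled by a total per library, averaged 230.5 ± 57.9 for Pecam1, 163.9 ± 27.8 for Tek, 135.5 ± 24.99 for Tie1 and 55.9 ± 18.99 for Flt1 (SD, n = 70). The median region of the tables averaged 53.5, so that Flt1 stood at the 51.4th percentile of regions, Tie1 at the 81.2nd, Tek at the 86.5th and Pecam1 at the 93.8th. Because all regions have the same width, these levels compare equal lengths of DNA, though not equal numbers of CpG. The order Pecam1, Tek, Tie1, Flt1 from high to low was found in 55 of 70 libraries, and Flt1 was lowest in all but 1 of the 15 others. Relative to the median region of its own library, the mean ratio was 4.36 for Pecam1, 3.10 for Tek, 2.56 for Tie1 and 1.05 for Flt1. Recovered reads per library ranged from 107 to 329 for Pecam1, 95 to 226 for Tek, 57 to 187 for Tie1 and 21 to 98 for Flt1.

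Replicate scatter was set against the counting of reads and also taken on the log2 scale. For Pecam1 the variance within groups was 11.4 times what counting of reads alone would give at terminal euthanasia and 14.8 times at partial hepatectomy, which put it at the 92.1st and 96.7th percentiles of all tested regions for that ratio. The medians over tested regions were 4.60 and 4.18 at those times. Flt1 reached 7.12 and 5.90 times, Tek 4.93 and 4.82 times, and Tie1 5.80 and 3.77 times, in the same order of times. This ratio grows with the number of reads where relative scatter is equal. On the log2 scale the scatter of Pecam1 was not high, with a within-group SD of 0.33 at terminal euthanasia (24.6th percentile) and 0.39 at partial hepatectomy (53.8th percentile). Tek was among the steadiest regions on that scale, with a within-group SD of 0.26 at terminal euthanasia (2.51st percentile) and 0.24 at partial hepatectomy (5.14th percentile). Flt1 had the widest log2 scatter of the 4, with SDs of 0.52 and 0.43 at those times. No molecular identifiers are named in the sources used, so counting variance covers counting error only.

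**Figure D2:**
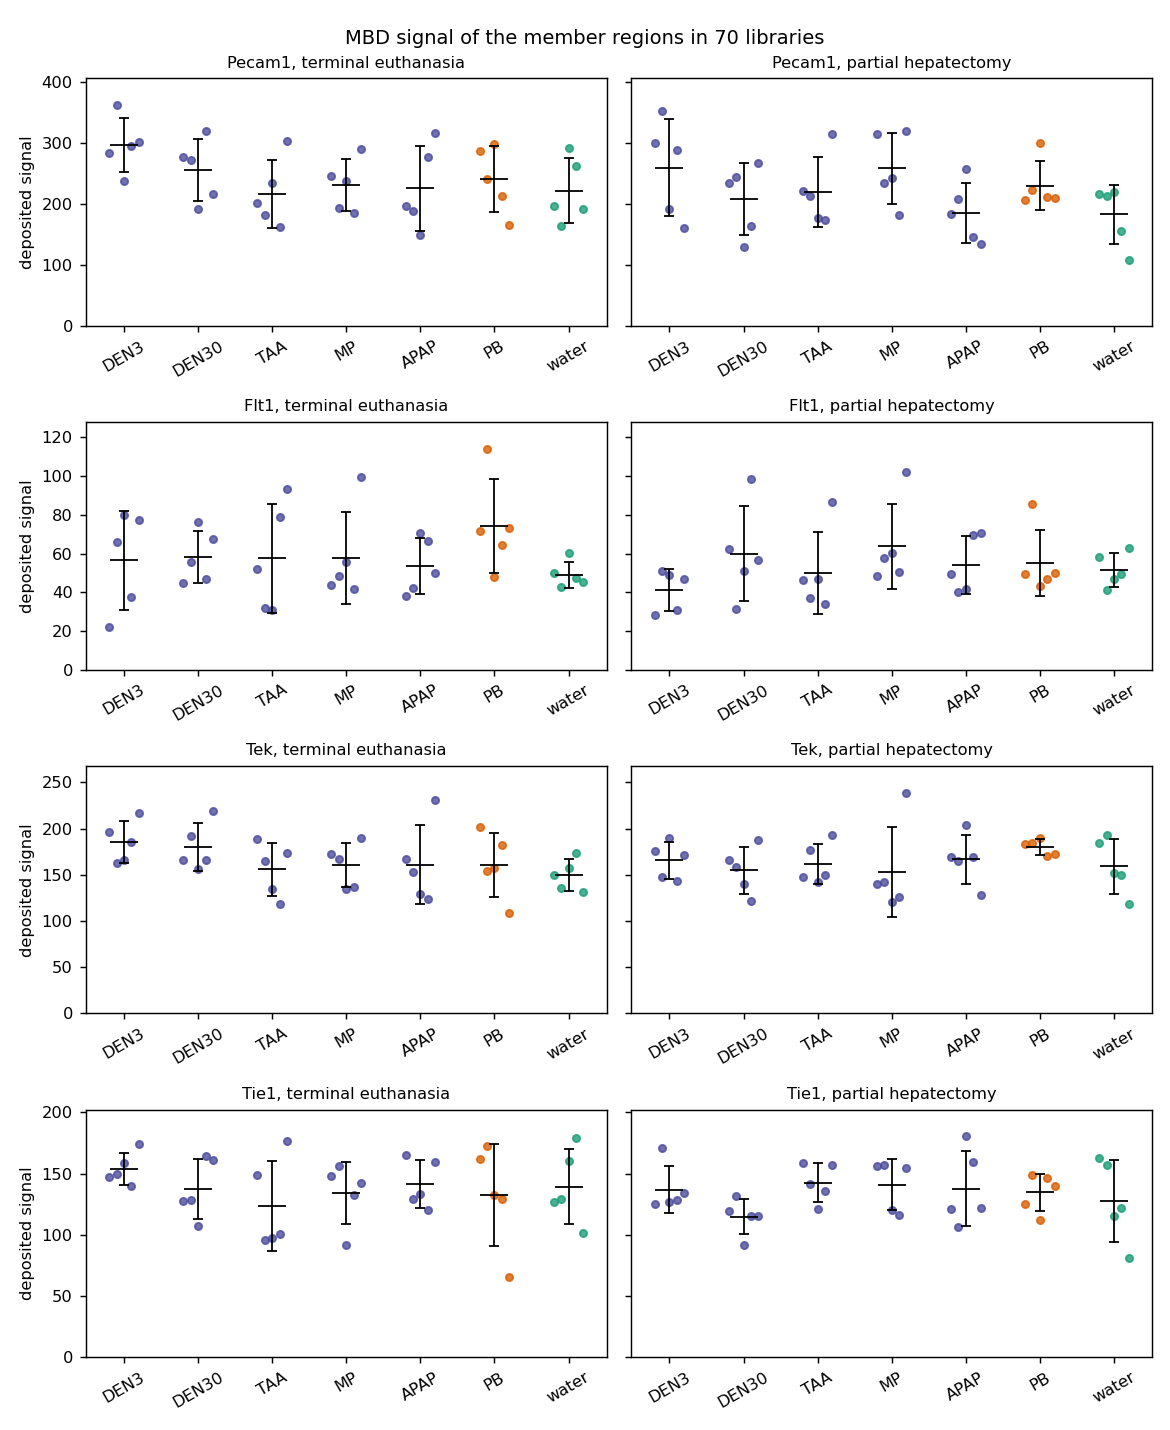
Deposited MBD signal (y axis, from 0) of Pecam1, Flt1, Tek and Tie1 in each of the 5 libraries per group, with terminal euthanasia on the left and partial hepatectomy on the right; bars are mean ± SD. The groups overlap in every panel, and single libraries such as MP library 5 at partial hepatectomy for Tek (239) stand above the rest.

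Group means of Pecam1 fell between 216 (TAA) and 296 (DEN3) at terminal euthanasia and between 182.5 (water) and 259 (DEN3) at partial hepatectomy. Those of Flt1 fell between 49.1 (water) and 74.2 (PB) at terminal euthanasia and between 41.3 (DEN3) and 63.9 (MP) at partial hepatectomy. Tek ranged from 149.5 (water) to 185 (DEN3) at terminal euthanasia and from 153 (MP) to 179.9 (PB) at partial hepatectomy. Tie1 ranged from 124 (TAA) to 154 (DEN3) and from 115 (DEN30) to 143 (TAA) at those times. The ratio of the highest to the lowest group mean was thus between 1.17 and 1.55. When the 7 groups of a time were ordered by their mean, all 6 pairs of neighbours overlapped in every gene at both times, and so did the highest and lowest group.

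No treatment difference at any of the 4 genes passed the test across all regions (limma with a variance trend on log2(signal + 1), Benjamini-Hochberg adjustment over all tested regions, threshold 0.05). At terminal euthanasia 0 of 28 tests on the members passed, 7 contrasts for each of 4 regions, and at partial hepatectomy 0 of 28 passed. In each of those 14 contrasts 0% of tested regions were called, 16008 regions being tested at terminal euthanasia and 15809 at partial hepatectomy. A count of 0 among the members is therefore the same as in the tables as a whole. An F test for any difference among the 7 groups called 0% of regions at terminal euthanasia and 0.00633% (1 region, no member) at partial hepatectomy. The smallest adjusted p of a member over all 56 contrasts was 0.58.

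In the main fit no member reached an unadjusted p under 0.05 in any contrast either, though some did in the alternatives described at the end. At terminal euthanasia the share of all regions under that value was 8.51% for DEN3 against PB, 3.41% for DEN30, 2.06% for TAA, 2.57% for MP and 2.76% for APAP, each against PB, 3.01% for DEN30 against DEN3 and 3.17% for PB against water. At partial hepatectomy the shares were 3.17% for DEN3, 7.64% for DEN30, 4.44% for TAA, 3.67% for MP and 3.68% for APAP, each against PB, 5.22% for DEN30 against DEN3 and 6.28% for PB against water. For the F test over the 7 groups they were 2.55% at terminal euthanasia and 4.16% at partial hepatectomy. With 4 regions per contrast, a count of 0 is near these shares. The intervals bound what the data allow. The 95% intervals of the members' log2 differences lay within -1.04 and 1.10 at terminal euthanasia and within -0.91 and 0.98 at partial hepatectomy, the extremes belonging to Flt1 in both cases. For Tek they lay within -0.42 and 0.60 and within -0.62 and 0.54 at those times.

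**Figure D3:**
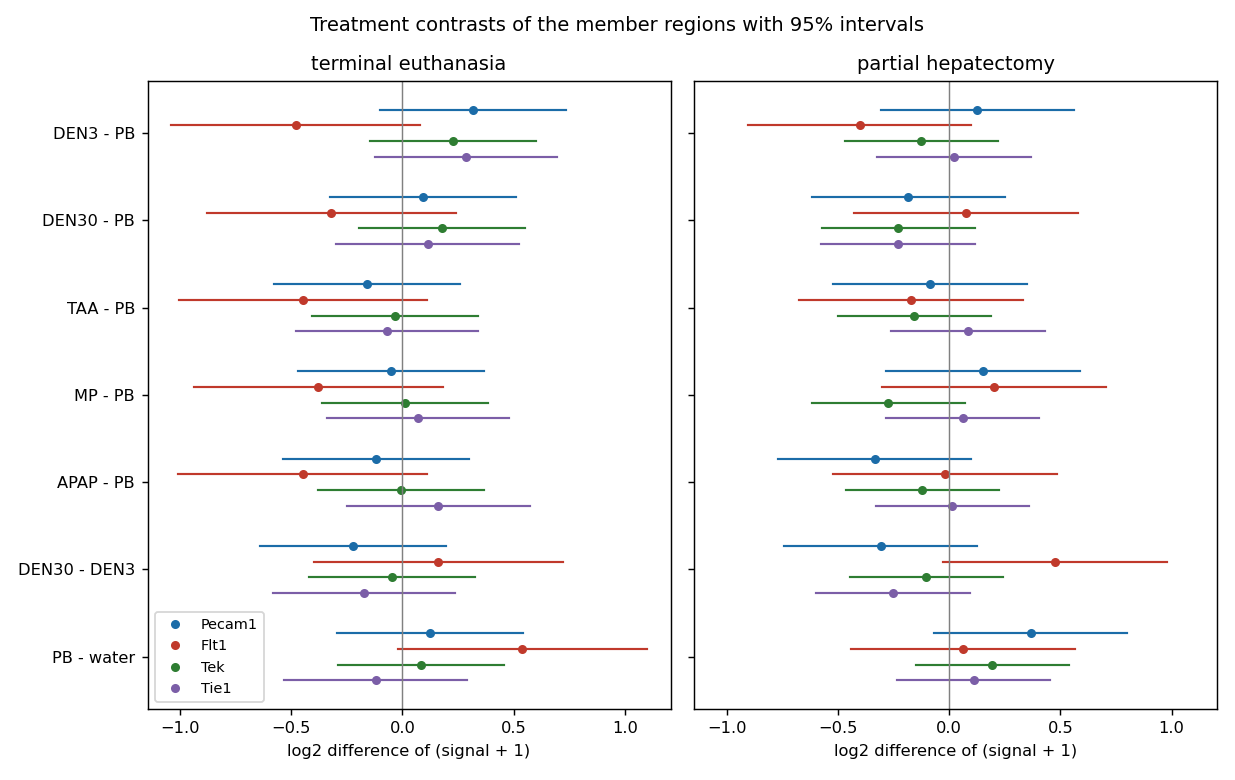
Log2 difference of (signal + 1) for each contrast (rows) and gene (colour) with 95% intervals from limma, terminal euthanasia on the left and partial hepatectomy on the right. All 56 intervals include 0, and those of Flt1 are the widest.

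Flt1, the VEGF receptor, showed the largest differences of the 4 genes. At terminal euthanasia its signal in the 5 PB livers was 71.4, 114, 47.6, 64.6 and 73.2, against 50.0, 42.7, 60.1, 47.4 and 45.1 in the water controls. One PB library lay far above the others while the lowest PB library was within the range of water. The means were 74.2 ± 24.5 for PB and 49.1 ± 6.73 for water (SD, n = 5 each), a log2 difference of 0.54 (95% interval -0.02 to 1.10, limma adjusted p = 1.00). At partial hepatectomy PB averaged 55.1 ± 17.2 and water 51.6 ± 8.71. The PB mean at terminal euthanasia was the highest of all groups, and every initiator group lay below it: the log2 difference from PB was negative in 5 of 5 contrasts, all sharing the same PB libraries. DEN3 gave the lowest of these differences (-0.48, 95% interval -1.04 to 0.08).

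At partial hepatectomy the smallest p for Flt1 belonged to the comparison of the diethylnitrosamine doses. The DEN30 livers had 62.4, 31.5, 50.8, 98.4 and 56.5, against 28.1, 51.04, 49.1, 31.1 and 46.99 in DEN3 livers. Most DEN30 values exceeded most DEN3 values, but the lowest DEN30 value was in the lower part of the DEN3 range. The log2 difference was 0.48 (95% interval -0.03 to 0.98, limma adjusted p = 0.93). The value of 98.4 came from a DEN30 library of weak enrichment, and the difference was 0.26 without the weakly enriched libraries.

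Pecam1, the junctional adhesion molecule, had its smallest p at terminal euthanasia for DEN3 against PB. Signal was 283, 362, 238, 296 and 302 in DEN3 livers, against 287, 241, 298, 212 and 166 in PB livers. The groups overlapped, with 2 DEN3 values above every PB value and the others inside the PB range. The means were 296 ± 44.5 in DEN3 and 241 ± 54.3 in PB livers (SD, n = 5 each), a log2 difference of 0.32 (95% interval -0.10 to 0.73, limma adjusted p = 0.61), which was 0.01 after quantile normalization. At partial hepatectomy the PB livers had 206, 223, 299.9, 211 and 209.7, against 216, 214, 219, 156 and 108 in water livers. Of the water values 3 fell within the PB range and 2 below it, and the lowest, 108, was a weakly enriched library. The log2 difference was 0.37 (95% interval -0.07 to 0.80, limma adjusted p = 0.74) and 0.19 without the weakly enriched libraries.

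For Tek, the angiopoietin receptor, the smallest p at partial hepatectomy belonged to MP against PB. The MP livers had 140.2, 142, 120.1, 126 and 239, against 183, 184, 189.7, 170.1 and 172 in PB livers. In the MP group 4 of 5 libraries lay below every PB library and the other lay above every one. The log2 difference was -0.28 (95% interval -0.62 to 0.07, limma adjusted p = 1.00), and without the last library number block, which holds that high MP library, it was -0.45 with an adjusted p of 1.00. At terminal euthanasia the smallest p belonged to DEN3 against PB, with means of 185 ± 22.7 in DEN3 and 160.8 ± 34.8 in PB livers (SD, n = 5 each), a log2 difference of 0.23 (95% interval -0.15 to 0.60) and an adjusted p of 0.66. Its sign turned with quantile normalization (-0.02).

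Tie1, the partner receptor of TEK, gave for the same contrast at terminal euthanasia 147, 149, 158, 140.2 and 174 in DEN3 livers, against 162, 172, 133, 129 and 65.2 in PB livers. The DEN3 values were close together and lay inside the wide PB range except for the highest. The log2 difference was 0.29 (95% interval -0.13 to 0.70, limma adjusted p = 0.63). It was 0.05 without the weakly enriched libraries, among them the PB library at 65.2. At partial hepatectomy the DEN30 livers had 119.6, 131, 92.1, 115 and 115, against 125, 171, 127, 128 and 134 in DEN3 livers. Of the DEN30 values 4 lay below every DEN3 value, and the log2 difference was -0.25 (95% interval -0.60 to 0.09, limma adjusted p = 0.93). It was -0.16 without the weakly enriched libraries, among them DEN30 libraries 3 and 4 (92.1 and 115).

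Between the times, no change of the signal averaged over conditions was detected. Over the 35 terminal and 35 hepatectomy libraries, means were 240.8 and 220.3 for Pecam1, 58.1 and 53.7 for Flt1, 164.7 and 163.1 for Tek and 137.5 and 133.6 for Tie1. Log2 differences, terminal minus hepatectomy and averaged over the 7 conditions, were 0.14 (95% interval -0.02 to 0.31, limma adjusted p = 0.84) for Pecam1, 0.09 (-0.12 to 0.30) for Flt1, 0.01 (-0.12 to 0.14) for Tek and 0.03 (-0.11 to 0.17) for Tie1. All 4 were positive, and the median over 16385 regions was 0.05. No member was among the 0.0671% of regions called (11 regions), nor among the 6.59% with an unadjusted p under 0.05. Within single conditions no member was called, where 0.0061% of regions (1 region) were called in PB and 0% in each of the other 6 conditions. A treatment effect that differed between times was tested over 6 coefficients, which called 0% of regions and gave an unadjusted p under 0.05 in 2.75%, no member being among either.

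Libraries that carry the same condition and number at the 2 times were compared, to ask whether a gene deviates from its group in the same way at both times. For Flt1 the deviations from the group mean correlated (Pearson r = 0.51, n = 35 pairs, permutation of numbers within conditions, two-sided p = 0.0052, adjusted over the 4 genes 0.021), and r was 0.53 without the 2 pairs farthest from the median. Spearman's rho was 0.46 (permutation p = 0.017, adjusted 0.067), and 23 of 35 pairs deviated to the same side. Over 16385 regions the median r was 0.10, and 1.495% of them had an r as high as that of Flt1. The genes were chosen with results of these data known, so the adjustment over 4 genes is not independent evidence. The others did not pass, with r of 0.17 for Pecam1, 0.16 for Tek and 0.22 for Tie1.

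This relation for Flt1 did not hold throughout. Within the 4 library blocks r was 0.66, 0.80, -0.34 and 0.62 (n = 10, 10, 10 and 5 pairs), the same-number libraries of both times always lying in 1 block. It was 0.34 (adjusted permutation p = 0.16) with block means removed, 0.33 (adjusted p = 0.38) without the last block, and 0.22 (adjusted p = 0.46) when every library was scaled to equal total signal over the regions. Without the 8 pairs that hold a weakly enriched library it was 0.81 (n = 27 pairs, adjusted permutation p = 0.00092). Leaving out each pair in turn gave 0.43 to 0.61, and the call was lost on leaving out any 1 of 4 pairs (numbers 1 of DEN3, 5 of TAA, 5 of MP and 2 of PB). For Tek, r was -0.53 (adjusted permutation p = 0.0017) with block means removed, opposite in sign to the value before. The permutations exchanged numbers across blocks, so the p-values with block means removed do not test the relation within blocks. Before that removal they crossed blocks too, so the permutation p for Flt1 does not set a shared number apart from a shared block. Within the 4 blocks r for Tek was negative in each, at -0.25, -0.59, -0.48 and -0.73. The labels do not say that a shared number marks 1 rat, and what the same-number libraries share beside the block was not tested.

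**Figure D4:**
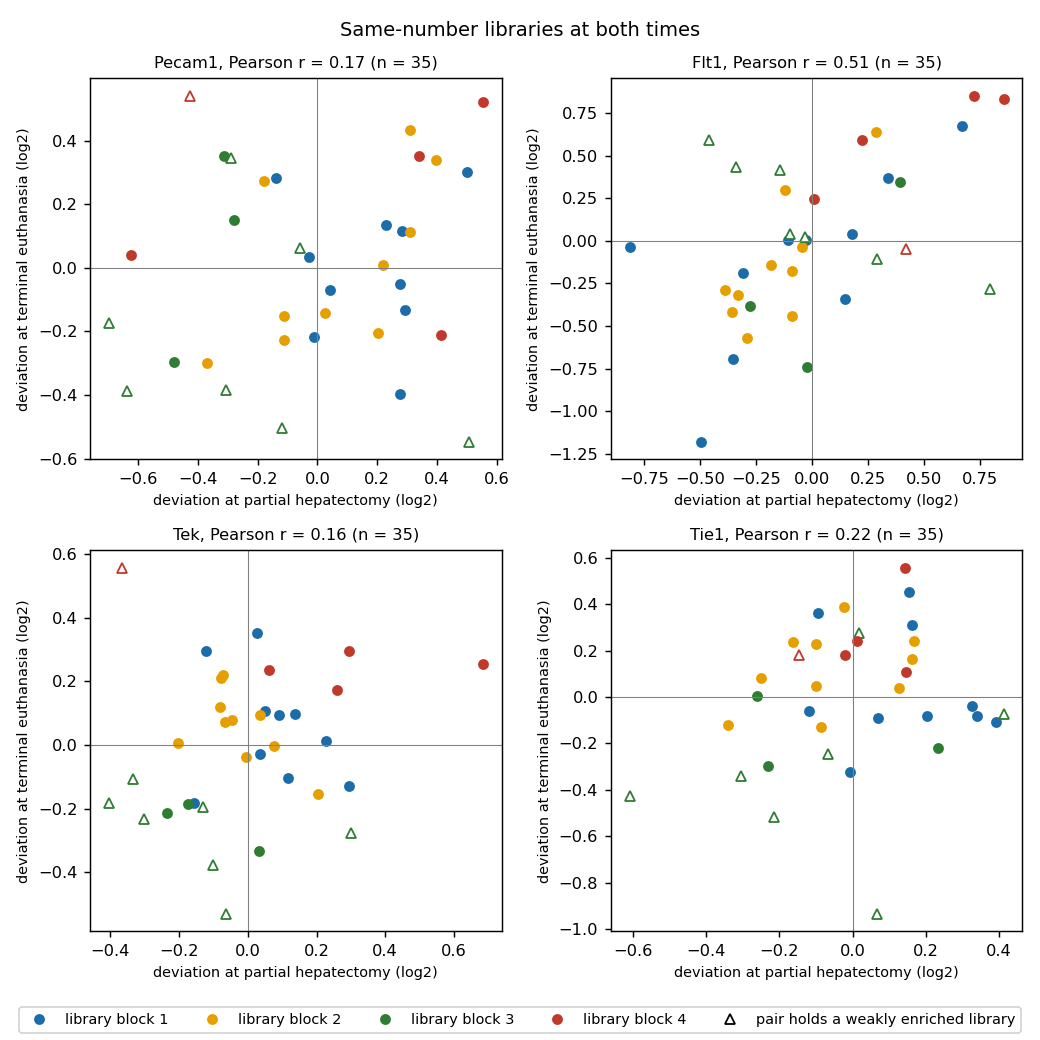
Deviation of log2(signal + 1) from the group mean at partial hepatectomy (x axis) and terminal euthanasia (y axis) for the 35 pairs of libraries with the same condition and number, coloured by library block; open triangles are pairs with a weakly enriched library. For Flt1 (r = 0.51) the filled points run from lower left to upper right, whereas the other 3 genes show no such run.

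Differential peaks in the gene bodies were listed by the authors for DEN30 against PB. The authors' deposited table assigned 10 peaks to the listed genes, all at the time point called 5w, which is read here as partial hepatectomy, and 0 at the time point called 11w. Tek had 6, Flt1 3 and Tie1 1, and Pecam1, Kdr and Eng had 0. None overlapped one of the 4 regions, the nearest lying 7559 bp from the Tek region. Of the 10, 9 had more reads in DEN30, which is close to the 95.4% of all 29791 peaks at 5w that did so; at 11w the share was 32.3% of 6440 peaks. In that list 323 of the 6407 genes with a peak at 5w had at least 6, Tek among them. The number of peaks was not set against gene length.

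In Tek all 6 peaks lay in introns. By the authors' deposited table, the peak at 17165 bp from the start (chromosome 5, 115064224 to 115064497 in the files' coordinates) held 42 DEN30 and 5 PB reads. The peaks at 8768 and 22500 bp held 17 DEN30 reads each, with 1 and 2 PB reads. The peak at 52210 bp held 15 DEN30 and 0 PB reads, and those at 118597 and 147047 bp held 19 DEN30 reads each with 2 and 4 PB reads. In Flt1 the authors' deposited table gave 2 intron peaks that were higher in DEN30, with 16 reads against 1 PB read at 61858 bp and 29 against 3 at 93324 bp. The third Flt1 peak, at 177452 bp overlapping a coding exon and the 3′ untranslated region, was the only one lower in DEN30, with 4 reads against 19 in PB. The Tie1 peak, in an intron 12883 bp from the start, held 18 DEN30 and 3 PB reads. The table holds 1 value per set and no replicates, so no error can be given, and 2 of the 5 DEN30 libraries at partial hepatectomy were weakly enriched.

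**Figure D5:**
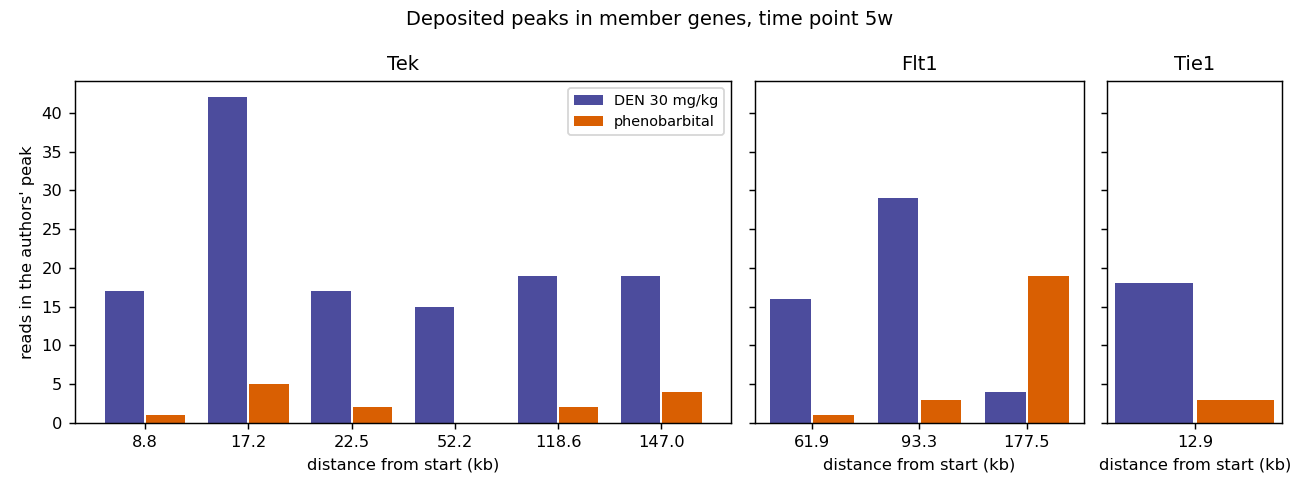
Reads in the authors' peaks assigned to Tek, Flt1 and Tie1 at 5w (y axis) for DEN30 (left bar) and PB (right bar), ordered by distance from the transcript start in kb (x axis). In 9 of 10 peaks the DEN30 bar is the higher.

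The regions themselves did not show this difference. The promoter regions in DEN30 and PB livers at partial hepatectomy averaged 155 ± 25.4 and 179.9 ± 8.43 for Tek, 59.9 ± 24.4 and 55.1 ± 17.2 for Flt1 and 115 ± 14.3 and 135 ± 15.4 for Tie1 (SD, n = 5 each). For Tek and Tie1 the DEN30 mean was the lower one, at log2 differences of -0.23 each, and neither passed the test. DEN30 libraries 3 and 4 were weakly enriched, with 140 and 121 for Tek and 92.1 and 115 for Tie1. Libraries 1, 2 and 5 had 166, 159 and 188 for Tek and 119.6, 131 and 115 for Tie1. The part of weak enrichment in these differences was not tested. The smallest p-values that the authors' deposited table gives the members, from their own test of each group against PB, belong to the same comparison, 0.068 for Tie1 and 0.091 for Tek.

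Among other genes of endothelial biology, 87 were listed and 78 had a region, 85 regions in all. They comprise VEGF ligands and further receptors, angiopoietins, endoglin partners, junction, sinusoidal and Notch genes, transcription factors and genes of endothelial function. In the treatment contrasts none was called, in 581 tests at each time, and an unadjusted p under 0.05 was reached in 4.99% of tests at terminal euthanasia and 5.51% at partial hepatectomy, against 3.64% and 4.87% of the tests over all regions. The smallest p at terminal euthanasia was that of Procr, the endothelial protein C receptor, with 100.7 ± 13.1 in DEN3 and 62.02 ± 18.05 in PB livers (SD, n = 5 each; log2 difference 0.74, limma adjusted p = 0.58). Klf2, a flow-responsive transcription factor, had 148 ± 18.1 in DEN3 and 103 ± 17.9 in PB livers (0.53, adjusted p = 0.58). Nrp2, a neuropilin co-receptor of VEGF, had 23.3 ± 17.7 in TAA and 42.6 ± 13.1 in PB livers (-1.06, adjusted p = 1.00), and Vegfc, a lymphangiogenic ligand, had 32.4 ± 14.2 in APAP and 18.1 ± 9.45 in PB livers (0.93, adjusted p = 1.00). None of these differences passed.

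At partial hepatectomy, Egfl7, a secreted endothelial factor, had 189.6 ± 17.4 in PB and 128 ± 22.7 in water livers (log2 difference 0.58, limma adjusted p = 0.69). The TGF-beta receptor genes Tgfbr2 and Tgfbr1 had 71.5 ± 7.91 in DEN30 and 47.4 ± 12.999 in DEN3 livers (0.61, adjusted p = 0.82) and 83.6 ± 11.9 in DEN30 and 123 ± 22.03 in PB livers (-0.54, adjusted p = 0.52). Hgf, the hepatocyte growth factor gene, had 77.4 ± 12.9 in DEN3 and 53.8 ± 21.2 in PB livers (0.61, adjusted p = 1.00). None of these passed either. Between the times, 1 of 84 tested regions of the list was called, that of Sox7, an endothelial transcription factor of the SOX family, which is named after its value was seen, against 0.0671% of all 16385 regions. An unadjusted p under 0.05 was reached by 5 of the 84, against 6.59% of all regions. Sox7 had 119.8 ± 36.1 in terminal and 89.7 ± 23.95 in hepatectomy livers (SD, n = 35 each; log2 difference 0.42 ± 0.09 SE, limma adjusted p = 0.0096), higher in 7 of 7 conditions. Of the 1079 regions with an unadjusted limma p under 0.05 in this comparison, 985 were higher at terminal euthanasia. Sox7 passed in 78 of 78 alternative settings, each single library left out included, with log2 differences of 0.38 to 0.45. These settings reuse the same libraries and are not independent of each other. The highest limma adjusted p, 0.047, came without the last library number block.

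Marker lists of other liver cell types were equally without calls in the treatment contrasts. Of hepatocyte markers 7 genes had a region, with a median signal of 55.6, of stellate cell markers 7 (92.9), of macrophage markers 7 (37.1), of lymphocyte markers 7 (91.3) and of biliary markers 3 (103). The 4 endothelial genes had a median of 149.7. At promoters these levels give no measure of cell numbers.

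Genes with similar group means were sought among about 8191 regions of above-median signal, by Pearson's r over the 14 group means of log2(signal + 1). The most alike were Ceacam9, Ruvbl2 and Akap2 for Pecam1 (r = 0.92 each), Septin3, Rpp25 and Rhcg for Flt1 (0.85, 0.76 and 0.75), Azi1, Lat2 and Sdpr for Tek (0.87, 0.86 and 0.85) and Cd300e, Cdkl1 and Ubxd3 for Tie1 (0.92, 0.92 and 0.91). None is an endothelial gene of the lists used here. Among the 4 genes themselves r ran from -0.28 between Flt1 and Tie1 to 0.58 between Pecam1 and Tie1. Pecam1, Tek and Tie1 had r of 0.44 to 0.58 with each other, and Flt1 had -0.28 to 0.07 with the 3. These values are descriptions over the same libraries, whose enrichment and scaling they share.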

How the data were processed

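MBD sequencing was deposited for 70 rat liver libraries in 14 groups of 5, grouped by title and label fields. Per the file headers, 2 region tables, named 5w and 10W taken for partial hepatectomy and for terminal euthanasia, hold the deposited signal, 1 value per library and region. Each library's values are whole multiples of a step, equal to 50 M divided by a scaling total, with 0.01 where there is no read; division by the step gave whole reads within 0.01 for 100% of values. The meaning of that total, the aligner, the build and the peak caller are stated in none of the sources used. The deposited tables also give the authors' p-value from a t-test, and the deposited peak list gives read counts, an enrichment ratio and a read density score for DEN30 against PB, at times it calls 5w and 11w.

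Regions with a signal of at least 10 in at least 5 libraries were tested with limma 3.58.1 (R 4.3.3) on log2(signal + 1), with 1 mean per group over the libraries of a time (35) or both (70), a variance trend and Benjamini-Hochberg adjustment over all tested regions. The fold differences are on that log2 scale, which understates changes of low regions. The fit was tested on simulated data, where it missed some regions changed 2-fold; it found fewer than first required, and the requirement was then lowered. Correlations were tested with 100000 permutations. The members, lists and settings were chosen with earlier results of these data known. Members were named with their contrast of smallest p at each time, up to 4 genes of the wider endothelial list per time by smallest p, and the 3 most alike genes per member. Alternatives were another pseudocount, no filter, quantile normalization, equal region totals, block terms, fewer groups and libraries left out. No count test was run.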

Additional observations from a re-analysis of the deposited data

Results flagged for a closer look

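Of 56 sets of 5 libraries (4 genes in 14 groups), 7 held a library whose gap to its nearest neighbour was large for the range of the group by Dixon's criterion at the 95% level. The criterion marks about 1 in 20 sets by chance if values are normally distributed. Over all tested regions it marked 7.55% of 222719 sets, against 12.5% (7 of 56) here, and the difference was not tested. All 7 were the highest library of their group, as were 75.3% of those marked over all regions. For Flt1 they were the second PB library at partial hepatectomy (85.6), the fifth TAA library at partial hepatectomy (86.4), and the fifth MP library at both times, at terminal euthanasia (99.3) and at partial hepatectomy (102). For Tek it was the fifth MP library at partial hepatectomy (239), for Pecam1 the third PB library at partial hepatectomy (299.9) and for Tie1 the second DEN3 library at partial hepatectomy (171). The fifth MP and TAA libraries belong to the last library number block, and none of the 7 libraries was weakly enriched. The part of the block in these values was not tested.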

How the results depend on the processing

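No member was called in any of the alternatives run, each library left out in turn included (1411 comparison and setting combinations, smallest adjusted p 0.27). Over 5644 member tests in these alternatives, 47 (0.833%) had an unadjusted p under 0.05, against 4.26% of all regions in the same settings: 33 for Flt1, 10 for Pecam1, 4 for Tek (smallest p 0.0075, MP minus PB at partial hepatectomy without the last block) and 0 for Tie1. For Flt1, PB minus water at terminal euthanasia had an unadjusted limma p of 0.018 with only the groups of the contrast. That p was 0.040 with the block covariate, 0.045 without the last block and 0.046 with equal region totals. It was 0.047 with the replicate block and 0.0497 with quantile normalization. The lowest adjusted p in these settings was 0.82. Within 1 time, the replicate block setting adds the replicate number as a term shared by all conditions. Between the times, this setting fits the times within each condition and number. With it, the smallest limma adjusted p of a member for the mean difference between times was 0.67, and members called remained 0. Over all regions, calls for that difference rose from 11 to 14, and within APAP from 0 to 3. Libraries of the same condition and number correlated over all tested regions with r between -0.38 and 0.68 (median 0.08, over 0.1 in 11 of 35 pairs, best with their own number in 21). For the same number in 2 groups of 1 time, the median r was 0.017, with 49 of 210 pairs over 0.1. The labels do not pair them and not every pair passed 0.1, so no pairing was used in the main fit. The 21 of 35 exceed what a random choice among the numbers of a condition would give, but this was not tested. That baseline leaves out the block, which same-number libraries also share. The 21 therefore do not set a shared number apart from a shared block, and the part of the block in them was not tested. If the libraries are paired, the main tests between times left this out, and only the replicate block setting took it in. Of the named differences, 15 of 664 values turned sign, all near 0. For Tek these were DEN3 minus PB at terminal euthanasia (-0.0206 with quantile normalization) and the mean difference between times, which was -0.0166 with quantile normalization, -0.0105 without the last block, -0.0238 with equal region totals and between -0.00962 and 0.0347 on leaving out single libraries. For Tie1 the mean difference between times was -0.00529 with quantile normalization, -0.0115 without the last block and -0.00502 with equal region totals. The same-number r of Flt1 was 0.34 with block means removed, 0.22 with equal region totals, 0.33 without the last block, and 0.43 to 0.61 without single pairs; that of Tek was -0.53 with block means removed. The causes were not tested. Equal region totals and leaving out weak or last-block pairs were chosen after seeing the data. Count tests (edgeR, DESeq2) that had been planned were not run. Flt1, with 21 to 98 reads per library, had the fewest reads of the 4 genes.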
